A study of Mus musculus with 55 samples.

Results

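Matrix metalloproteinases (Mmp), the Adamts proteases, the related Adamts-like proteins (Adamtsl) and the tissue inhibitors of metalloproteinases (Timp) were followed in healing mouse infarcts with and without diabetes. The genes were chosen by name alone: every gene whose symbol is Mmp, Adamts, Adamtsl or Timp followed by a number and that is listed at both time points. This gave 51 genes of 56867: 23 Mmp, 19 Adamts, 5 Adamtsl and 4 Timp genes. RNA had been sequenced from left ventricular infarct tissue of C57BL/6J mice, all of which had a myocardial infarction made by permanent ligation of the coronary artery, so there was no tissue without infarction in any comparison. The titles divide 55 libraries into 6 groups: 8 non-diabetic, 8 type 1 diabetic and 8 type 2 diabetic at day 7, and 11, 10 and 10 at day 28. Library names carry hi STZ for type 1 and lo STZ HFFD for type 2, so the type of diabetes cannot be told apart from these 2 regimens, and the series' title sets the immune and metabolic signatures of both types against each other. The labels used here give neither age nor sex. The design text speaks of day 7 only, so day 28 rests on titles and labels, and library names place the days in separate sequencing projects, so that a change with day cannot be told apart from a change of project. No label says that libraries of a group come from separate animals, so the p-values take in only how far these libraries differ, and that spread may be technical. Several libraries of a group share the first number of their names, and groups of the same day share no such number. Anything tied to this number therefore cannot be told apart from the group.

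After an infarct, dead muscle is cleared and a collagen scar is laid down, and both steps depend on proteases that work outside the cell. Collagenases (Mmp8, Mmp13) open the collagen triple helix, gelatinases (Mmp2, Mmp9) cut what has been opened, stromelysins (Mmp3, Mmp10) cut proteoglycans and activate other Mmps, and membrane-type Mmps act at the cell surface. Most are made as inactive precursors, and the Timps bind the active enzymes. Several Adamts proteases work on the building side: Adamts2, Adamts3 and Adamts14 trim procollagen so that it can form fibres, while Adamts1, Adamts4, Adamts5 and relatives cut large proteoglycans. In mouse infarcts neutrophils and macrophages are known sources of Mmp8, Mmp9 and Mmp12, and fibroblasts of Mmp2, Mmp14 and Timp2.

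Of the 51 genes, 10 lie next to each other on mouse chromosome 9, with no other protein-coding gene listed between them in RefSeq (GRCm38.p6): Mmp13, Mmp12, Mmp1b, Mmp3, Mmp1a, Mmp10, Mmp8, Mmp27, Mmp20 and Mmp7. Mmps of this cluster are classic targets of AP-1, the Fos and Jun transcription factor. The 100 bases directly before the start of 5 of them are shown because these 5 are the cluster genes that passed the test as higher in a diabetic group at day 7. They are RefSeq sequences of build GRCm38.p6, 5′ to 3′ on the plus strand, with any match to the AP-1 motif TGANTCA in capitals. The motif reads the same on both strands.
Mmp13, chr9:7272414-7272513: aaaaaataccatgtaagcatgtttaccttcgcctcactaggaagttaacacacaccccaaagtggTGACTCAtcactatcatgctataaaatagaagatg
Mmp3, chr9:7445722-7445821: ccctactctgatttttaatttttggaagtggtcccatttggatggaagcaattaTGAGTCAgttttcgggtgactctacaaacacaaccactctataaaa
Mmp10, chr9:7502242-7502341: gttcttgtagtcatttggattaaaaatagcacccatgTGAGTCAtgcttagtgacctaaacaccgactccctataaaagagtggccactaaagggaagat
Mmp8, chr9:7558329-7558428: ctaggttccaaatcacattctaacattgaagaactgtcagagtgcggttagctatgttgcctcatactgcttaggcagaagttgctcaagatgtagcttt
Mmp27, chr9:7571296-7571395: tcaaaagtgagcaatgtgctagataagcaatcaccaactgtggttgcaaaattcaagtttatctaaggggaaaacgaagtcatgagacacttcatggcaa
Between the match and the start lie 28 bases in Mmp13, 39 in Mmp3 and 56 in Mmp10, and Mmp8 and Mmp27 have none. In the 250 bases before any listed start, 8 of the 10 cluster genes held a match, and none of the 26 other genes of the list with a RefSeq promoter entry did. Among all 27025 genes with an entry, 2113 (7.82%) held one. Mmp12 and Mmp7 held a match before a listed start and none before another. Of the cluster genes with a match, Mmp1a, Mmp1b, Mmp7 and Mmp20 had too few counts to be tested. A match is a run of letters and not a measured binding site.

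Summed levels of cell type markers differed between the groups at day 7. The 12 fibroblast markers summed to 23400 to 30100 CPM (counts scaled to the size of the library) in non-diabetic, 12200 to 25400 in type 1 and 13800 to 23500 in type 2 tissue. The 14 monocyte and macrophage markers summed to 1620 to 2710, 2090 to 3350 and 2240 to 3020 CPM. The 12 neutrophil markers summed to 33.8 to 112, 76.8 to 577 and 66.1 to 136 CPM, with up to 3 of them at 0 in a library. The 10 late scar, cartilage-like markers summed to 1450 to 2610, 618 to 1790 and 655 to 1390 CPM. The 10 T and NK cell markers summed to 10.7 to 22.9, 14.9 to 41 and 27.1 to 40 CPM, so that type 2 libraries lay above all non-diabetic ones. The 20 cardiomyocyte markers were above 0 in every library of either day, and at day 7 summed to 12400 to 41600, 3430 to 29300 and 8880 to 31300 CPM. The 10 mural and endothelial markers summed to 1930 to 2600, 1520 to 2300 and 1840 to 2320 CPM. Non-diabetic replicate 5 had the highest neutrophil sum of its group (112 CPM), and type 1 replicate 4 stood apart by neutrophil (577 CPM), B and plasma cell (4110 CPM) and adipocyte markers (1110 CPM) and by the lowest cardiomyocyte sum (3430 CPM). In bulk tissue, fewer cells of a type and less RNA per cell cannot be told apart. Library totals ran from 10756242 to 51158036 counts at day 7 and from 48105347 to 92869315 at day 28.

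Timp1 and Timp2 had the highest levels of the list at day 7, and Timp2 and Mmp2 at day 28, in all 3 groups of each day. Levels of different genes are compared as mean CPM per kilobase of exon. In non-diabetic tissue at day 7 the highest were Timp1 (262), Timp2 (199), the gelatinase Mmp2 (145), the membrane-type protease Mmp14 (113) and the procollagen trimmer Adamts2 (72.9). Type 1 tissue at day 7 had Timp1 at 489 and Timp2 at 138, then Mmp14 at 92.4 and Mmp2 at 82.2, so Mmp2 stood below Mmp14 there. Type 2 tissue had Timp1 at 381, Timp2 at 146, Mmp2 at 107 and Mmp14 at 95. At day 28 non-diabetic tissue had Timp2 at 159, Mmp2 at 87.2, Timp1 at 86.6 and the stromelysin Mmp3 at 44.7. At that day type 1 tissue had Timp2 at 165, Mmp2 at 121 and Timp1 at 79.7, and type 2 tissue 165, 104 and 96.2. Timp4 was low, at 0.723 in non-diabetic tissue at day 7 and 2.09 at day 28. Mmp3 stood at a mean log2 CPM of 3.02 in non-diabetic tissue at day 7 and 6.21 at day 28, whereas Adamts16 stood at 5.24 and 0.12. These shifts between days carry the sequencing project with them. Of the 51, 6 never passed the low-count filter and were not tested: Adamts13, Mmp1a, Mmp1b, Mmp7, Mmp20 and Mmp21. Adamts18 and Mmp10 were tested at day 7 only, which left 45 genes at day 7 and 43 at day 28.

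In type 1 tissue at day 7 the collagenases Mmp8 and Mmp13, the stromelysin Mmp3, Mmp27 and Timp1 were higher than in non-diabetic tissue, and Mmp2, Timp2, Adamts2, Adamts10, Adamts17 and Adamtsl2 were lower. Of 45 genes tested, 25 passed the threshold (an adjusted p at or under 0.05 in edgeR's quasi-likelihood fit, adjusted by Benjamini and Hochberg's method over all genes): 8 were higher and 17 lower than in non-diabetic tissue. Over all 18165 genes tested the share was 22.5%, with 11.1% higher and 11.4% lower. The median log2 change was -0.19 over the 45 genes and -0.01 over all genes. In 4 of the 45 (Mmp27, Timp1, Adamts10 and Adamtsl2) no type 1 library overlapped a non-diabetic one, against 1.36% of all genes. Fibroblast markers were lower in 9 of 12 genes, monocyte and macrophage markers higher in 10 of 14, and neutrophil markers higher in 7 of 9 tested. Late scar, cartilage-like markers were lower in 8 of 10 (median log2 change -1.22), T and NK cell markers higher in 2 of 10, and cardiomyocyte markers lower in 2 of 20 (median -0.77). Mural and endothelial markers were lower in 3 of 10 (median -0.17). With the neutrophil and macrophage marker levels as covariates, or the fibroblast marker level, 0 of the 45 genes passed in this edgeR fit, where 25 did without them. Over all genes 0 passed in either fit as well, where 4087 did without covariates, so the loss is not particular to these genes. Mmp8 (-0.37), Mmp3 (-0.12) and Timp1 (-0.38) had changes below 0 in the fit with the neutrophil and macrophage covariates. The mean log2 CPM of the macrophage markers ran from 5.28 to 5.96 in non-diabetic and from 6.15 to 6.72 in type 1 libraries, so that this covariate separates the groups without overlap. The part of these cells in the changes was not tested.

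**Figure D1:**
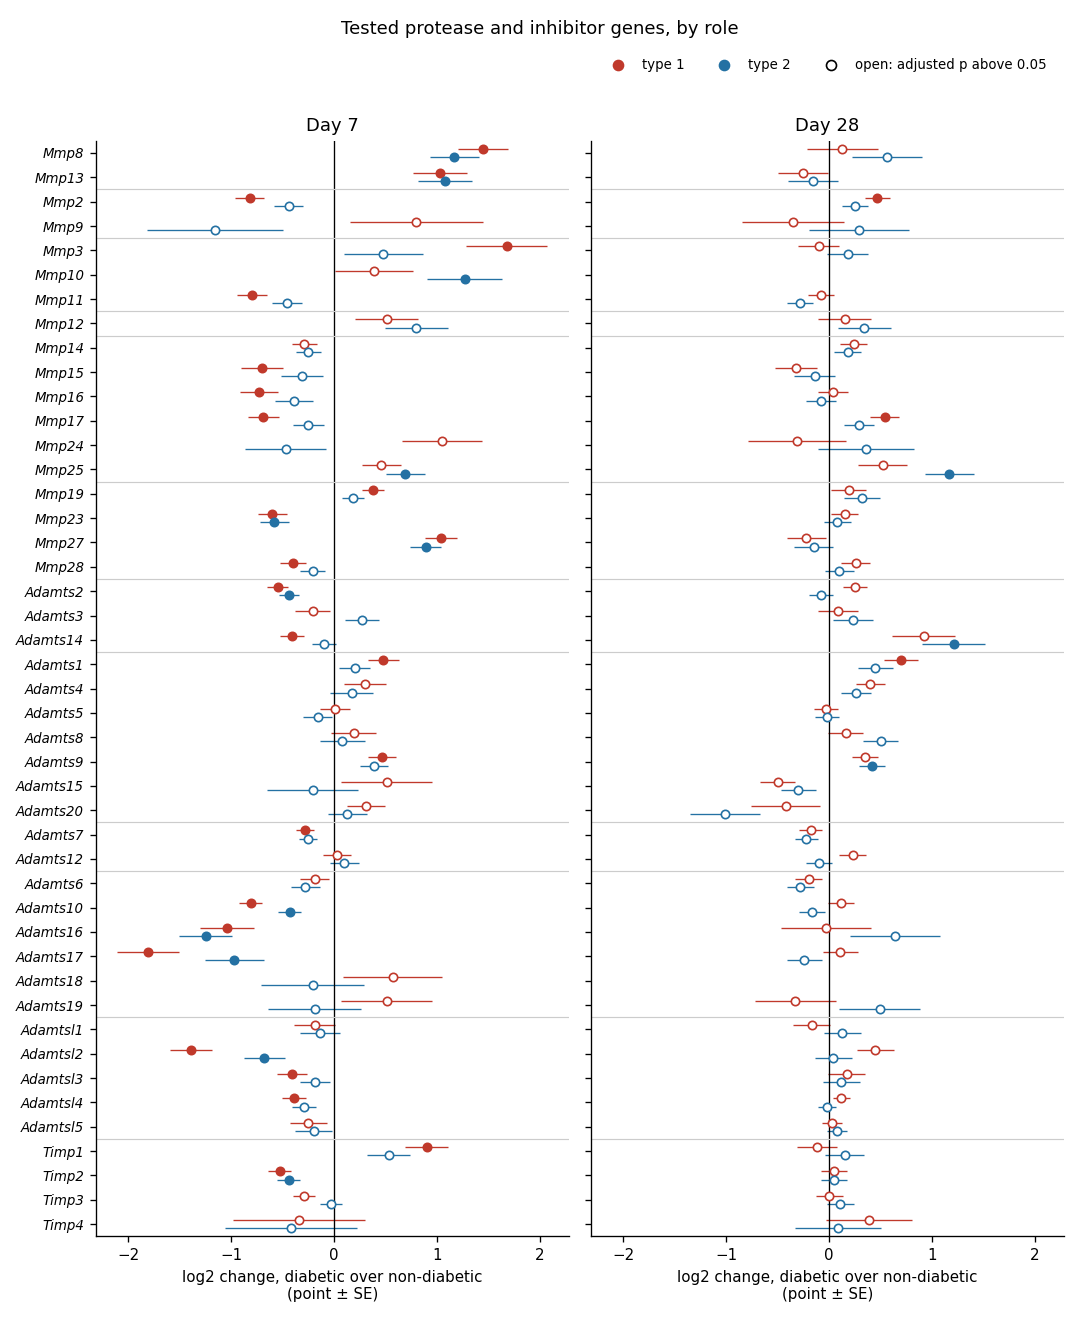
Log2 change (x axis, point ± SE) of each tested gene (rows, grouped by role between grey lines) in type 1 (red) and type 2 (blue) over non-diabetic tissue at day 7 (left) and day 28 (right). Filled points passed an adjusted p of 0.05. At day 7 filled points lie on both sides of 0, 8 above and 17 below for type 1. At day 28 the 3 filled points of each type lie above 0.

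Both collagenases that could be tested were higher at day 7 in type 1 tissue. Mmp8, the collagenase stored in neutrophil granules, ran from 0.48 over a median of 1.5 to 2.05 log2 CPM in the non-diabetic and from 1.9 over 2.73 to 3.77 in the type 1 libraries. Only the lowest type 1 library lay within the non-diabetic range. The log2 change was 1.45 (SE 0.243, edgeR adjusted p = 0.000343), with all 8 type 1 libraries above the non-diabetic mean. Mmp13, the collagenase of bone and cartilage remodelling, ran from -1.15 over 0.85 to 1.47 in non-diabetic and from 0.57 over 1.81 to 2.26 in type 1 tissue, a log2 change of 1.03 (SE 0.264, edgeR adjusted p = 0.00716). The groups overlapped, and the lowest value of each came from the libraries that stood apart, non-diabetic replicate 5 (-1.15) and type 1 replicate 4 (0.57). Without the former the change was 0.88, and without the latter 1.15. The other members of this role, Mmp1a and Mmp1b, had almost no counts.

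The stromelysin Mmp3 showed the largest rise among the 51 genes in type 1 tissue. Non-diabetic libraries ran from 2.29 over a median of 2.53 to 5.18 log2 CPM, and type 1 libraries from 3.66 over 5.26 to 5.47. In the non-diabetic group 1 library, replicate 5, lay among the type 1 values, and the other 7 reached at most 3.58. The log2 change was 1.68 (SE 0.393, edgeR adjusted p = 0.00389), and 2.32 (SE 0.308, edgeR adjusted p = 5.08e-05) without that library. Mmp10, another stromelysin, was close to the detection floor and gave 0.39 (SE 0.377, edgeR adjusted p = 0.482). Mmp11, stromelysin 3, which is known from stromal fibroblasts, went the other way: it ran from 4.52 over 5.11 to 5.41 in non-diabetic and from 3.87 over 4.16 to 4.73 in type 1 tissue. All 8 type 1 libraries lay below the non-diabetic mean, with a log2 change of -0.80 (SE 0.146, edgeR adjusted p = 0.00065).

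Mmp27, a little-studied Mmp of the chromosome 9 cluster, had the smallest adjusted p of the Mmps in both diabetic groups at day 7. It ran from 0.42 over 1.27 to 1.78 log2 CPM in non-diabetic, from 1.84 over 2.38 to 2.59 in type 1 and from 1.86 over 2.21 to 2.38 in type 2 tissue. Every library of both diabetic groups lay above every non-diabetic one. The log2 change was 1.04 (SE 0.155, edgeR adjusted p = 0.000154) for type 1 and 0.89 (SE 0.154, edgeR adjusted p = 0.000828) for type 2. With the neutrophil and macrophage covariates the type 1 value of Mmp27 was 1.25 and with the fibroblast covariate 1.14, with edgeR adjusted p of 0.371 and 0.879.

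Taken by position, a grouping made after the values were seen, all 6 tested genes of the chromosome 9 cluster had log2 changes above 0 at day 7, both in type 1 and in type 2 tissue. Those that passed were 4 in type 1 (Mmp13, Mmp3, Mmp8 and Mmp27) and 4 in type 2 (Mmp13, Mmp10, Mmp8 and Mmp27), and none was lower. The median change in the cluster was 1.04 for type 1 and 0.99 for type 2. Among the 39 tested genes elsewhere 4 were higher and 17 lower in type 1, and 1 higher and 7 lower in type 2, with medians of -0.28 and -0.21. Over all genes 11.1% were higher and 11.4% lower in type 1, and 3.85% and 3.5% in type 2. At day 28 none of the 5 tested cluster genes passed against non-diabetic tissue, with medians of -0.10 and 0.18. Mmp13, Mmp3 and Mmp10 hold the AP-1 letters shown above, and Mmp8 and Mmp27 do not.

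**Figure D2:**
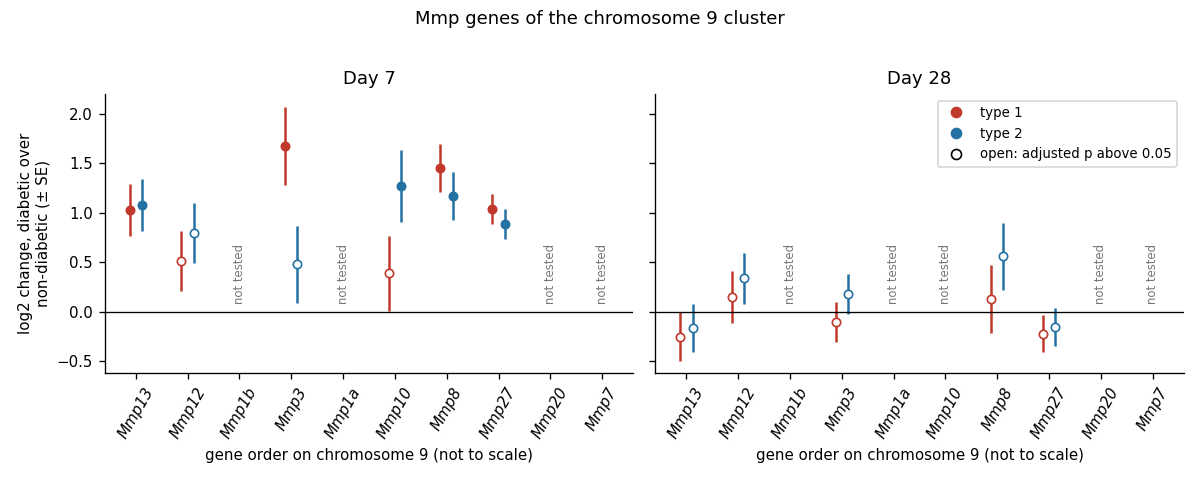
Log2 change (y axis, point ± SE) of the 10 Mmp genes in their order on chromosome 9 (x axis, not to scale) in type 1 (red) and type 2 (blue) over non-diabetic tissue. Filled points passed an adjusted p of 0.05. At day 7 (left) every tested gene lies above 0, and at day 28 (right) no point is filled.

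The gelatinases behaved unlike each other. Mmp2, the gelatinase of fibroblasts, ran from 8.7 over 8.94 to 9.19 log2 CPM in non-diabetic and from 7.72 over 7.87 to 8.91 in type 1 tissue. Of the type 1 libraries 1 reached into the non-diabetic range, and all 8 lay below the non-diabetic mean. The log2 change was -0.82 (SE 0.14, edgeR adjusted p = 0.000393). Mmp9, the gelatinase of neutrophils and macrophages, spread widely: from 1.29 over 3.49 to 6.91 in non-diabetic and from 3.24 over 4.66 to 7.13 in type 1 tissue. Its log2 change of 0.80 (SE 0.646, edgeR adjusted p = 0.394) did not pass and rested on 2 libraries. It was 2.11 (edgeR adjusted p = 0.00554) without non-diabetic replicate 5 and 0.22 (edgeR adjusted p = 0.832) without type 1 replicate 4, the highest library of each group for Mmp9. The macrophage elastase Mmp12 ran from 3.14 over 5.7 to 6.38 in non-diabetic and from 4.53 over 6.14 to 6.76 in type 1 tissue, with a change of 0.51 (SE 0.303, edgeR adjusted p = 0.235).

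**Figure D3:**
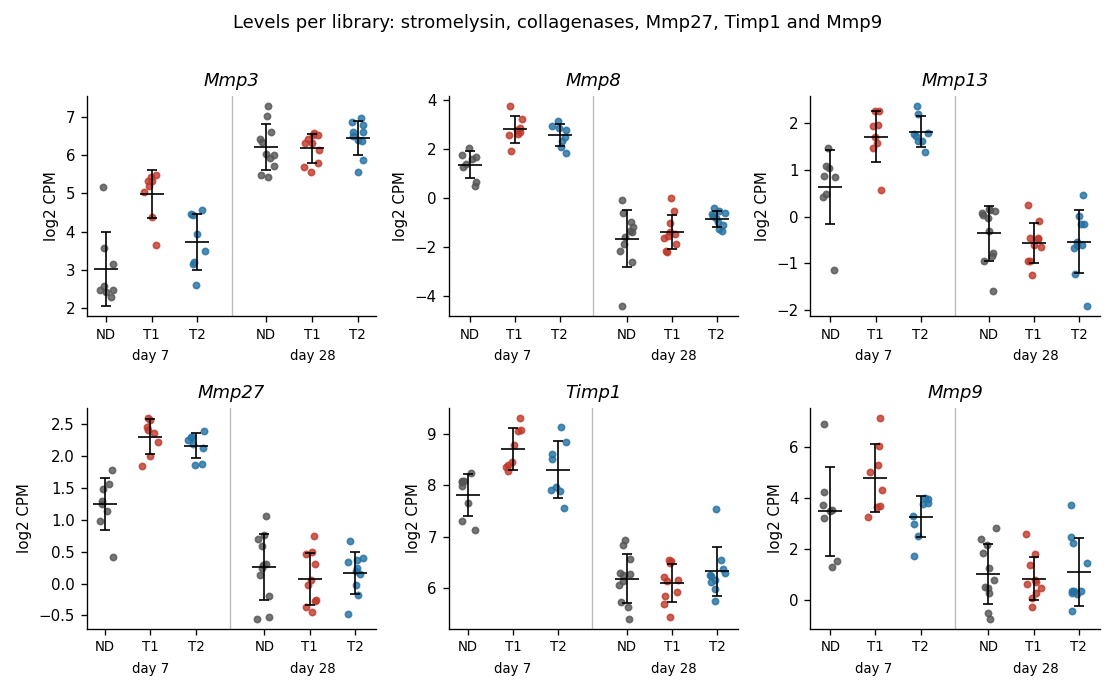
Log2 CPM (y axis) of Mmp3, Mmp8, Mmp13, Mmp27, Timp1 and Mmp9 in every library (points) of the non-diabetic (ND), type 1 (T1) and type 2 (T2) groups at day 7 and day 28, with mean and SD (black). At day 7 all T1 and T2 points of Mmp27 lie above all ND points, and the ND point of Mmp3 at 5.18 lies among the T1 points. Days come from separate sequencing projects.

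Of 6 membrane-type Mmps, 3 were called lower in type 1 tissue at day 7 and none was called higher, where 11.4% and 11.1% of all genes were. Mmp15, Mmp16 and Mmp17 fell, with log2 changes of -0.70, -0.73 and -0.69 (SE 0.207, 0.184 and 0.151, edgeR adjusted p = 0.0166, 0.00646 and 0.00246). Without non-diabetic replicate 2 the change of Mmp15 was -0.54 and did not pass (edgeR adjusted p = 0.0562). Mmp14, the main surface collagenase and activator of pro-Mmp2, ran from 8.95 over 9.41 to 9.64 log2 CPM in non-diabetic and from 8.51 over 9.15 to 9.37 in type 1 tissue. All 8 type 1 libraries lay below the non-diabetic mean, but the change of -0.29 (SE 0.122, edgeR adjusted p = 0.0867) did not pass. It passed at -0.34 without non-diabetic replicate 2. Mmp24 (1.05, SE 0.385, edgeR adjusted p = 0.0507) and Mmp25 (0.46, SE 0.189, edgeR adjusted p = 0.082) had changes above 0 that did not pass. Among the remaining Mmps, Mmp23 (-0.60, SE 0.144, edgeR adjusted p = 0.0045) and Mmp28 (-0.40, SE 0.124, edgeR adjusted p = 0.0214) fell and Mmp19 (0.38, SE 0.108, edgeR adjusted p = 0.0144) rose. Exons of Mmp11, Mmp19, Mmp24 and Mmp28 overlap a gene on the opposite strand, and since the strand setting of the counting is not given here, their reads may include that gene's.

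Procollagen-trimming Adamts genes fell in type 1 tissue. Adamts2, mutated in dermatosparactic Ehlers-Danlos syndrome, ran from 9.2 over 9.42 to 9.56 log2 CPM in non-diabetic and from 8.51 over 8.82 to 9.28 in type 1 tissue. The ranges touched, and all 8 type 1 libraries were below the non-diabetic mean. The log2 change was -0.55 (SE 0.0981, edgeR adjusted p = 0.000508). Adamts14 gave -0.41 (SE 0.115, edgeR adjusted p = 0.0132), and Adamts3 did not pass. The proteoglycan-cutting group leaned the other way: all 7 had changes above 0, and 2 passed, where 11.1% of all genes were called higher. These were Adamts1 at 0.48 (SE 0.153, edgeR adjusted p = 0.0259) and Adamts9 at 0.47 (SE 0.136, edgeR adjusted p = 0.0141). The call of Adamts1 was lost on leaving out non-diabetic replicate 2, non-diabetic replicate 3 or type 1 replicate 7, at an edgeR adjusted p of at most 0.0551 and a change of at least 0.41. Adamts7, which cuts cartilage oligomeric matrix protein, fell by 0.28 on the log2 scale (edgeR adjusted p = 0.0237), and lost the call on leaving out any 1 of 4 libraries (non-diabetic replicates 2 and 4, type 1 replicates 1 and 5), with changes from -0.32 to -0.23 over all 24 libraries left out in turn.

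Adamts10, Adamts17 and Adamtsl2, all known from disorders of elastic microfibrils, fell in type 1 tissue. Adamts10, mutated in Weill-Marchesani syndrome, ran from 7.62 over 7.92 to 8.17 log2 CPM in non-diabetic and from 6.73 over 7.1 to 7.41 in type 1 tissue. Its groups did not overlap, and the log2 change was -0.81 (SE 0.113, edgeR adjusted p = 0.000129). Adamtsl2, a microfibril-binding protein with no protease domain whose loss causes geleophysic dysplasia, ran from 7.44 over 7.92 to 8.62 in non-diabetic and from 5.77 over 6.44 to 7.2 in type 1 tissue. Again every type 1 library lay below every non-diabetic one, with a change of -1.39 (SE 0.204, edgeR adjusted p = 0.000154). Adamts17, also a Weill-Marchesani gene, had the largest fall of the list at -1.81 (SE 0.298, edgeR adjusted p = 0.000297): it ran from 1.79 over 3.37 to 3.72 in non-diabetic and from 0.33 over 1.39 to 2.55 in type 1 tissue. The overlap came from non-diabetic replicate 5 at 1.79, and the change was -1.94 without it. Adamts16 (-1.04, edgeR adjusted p = 0.00596) and Adamtsl4 (-0.39, edgeR adjusted p = 0.0186) fell as well. Adamtsl3 passed narrowly (-0.41, edgeR adjusted p = 0.044) and missed the threshold on leaving out any 1 of 15 of the 24 libraries (non-diabetic replicates 1, 3, 4, 6, 7 and 8, type 1 replicates 2, 4, 6 and 8, type 2 replicates 3, 4, 5, 6 and 8), with an adjusted p of at most 0.105. Adamtsl4 missed it without non-diabetic replicate 2 (-0.32) or replicate 4.

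**Figure D4:**
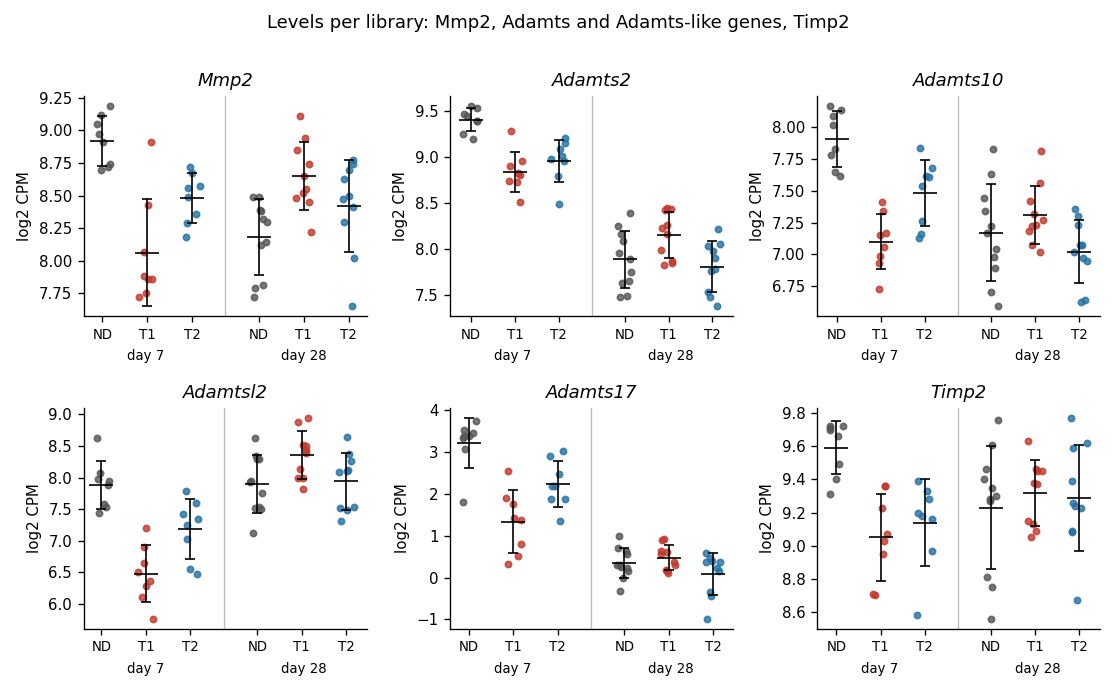
Log2 CPM (y axis) of Mmp2, Adamts2, Adamts10, Adamtsl2, Adamts17 and Timp2 in every library (points) of the non-diabetic (ND), type 1 (T1) and type 2 (T2) groups at day 7 and day 28, with mean and SD (black). At day 7 the T1 points of Adamts10 and Adamtsl2 lie below all ND points, and at day 28 the groups overlap in all 6 genes. Days come from separate sequencing projects.

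Other Adamts and Adamts-like genes did not pass in type 1 tissue at day 7. The proteoglycan cutters Adamts4, Adamts5, Adamts8, Adamts15 and Adamts20 had log2 changes of 0.30, 0.01, 0.19, 0.51 and 0.31, where the libraries of Adamts15 reached from 3.3 to 6.81 log2 CPM in type 1 tissue, the highest being replicate 4. Adamts12, which like Adamts7 cuts cartilage oligomeric matrix protein, gave 0.03. Adamts3, Adamts6, Adamts18 and Adamts19 gave -0.21, -0.19, 0.57 and 0.51, and Adamtsl1 and Adamtsl5 gave -0.19 and -0.25. Their edgeR adjusted p ran upward from the 0.243 of Adamts20.

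The inhibitors split. Timp1, the inhibitor induced in injury, ran from 7.14 over 8.02 to 8.24 log2 CPM in non-diabetic and from 8.29 over 8.61 to 9.31 in type 1 tissue. No library overlapped, and the log2 change was 0.90 (SE 0.211, edgeR adjusted p = 0.00405). Timp2, which also takes part in the activation of pro-Mmp2 by Mmp14, ran from 9.31 over 9.68 to 9.72 in non-diabetic and from 8.7 over 9.05 to 9.36 in type 1 tissue, a change of -0.53 (SE 0.111, edgeR adjusted p = 0.00192) with all 8 type 1 libraries below the non-diabetic mean. Timp3, the matrix-bound inhibitor, had a median of 8.64 in non-diabetic and 8.29 in type 1 tissue, and its change of -0.29 (SE 0.108, edgeR adjusted p = 0.0564) did not pass, though it did without non-diabetic replicate 5 or 7 or type 1 replicate 1 or 7 (changes of -0.34 to -0.31). Timp4, the inhibitor abundant in heart muscle, was low and variable at -0.34 (SE 0.639, edgeR adjusted p = 0.744). Exons of Timp3 and Timp4 overlap synapsin genes on the opposite strand.

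In type 2 diabetes at day 7, fewer genes passed. Of 45, 12 did, 5 higher and 7 lower, while 7.35% of all genes passed (3.85% higher, 3.5% lower). Without non-diabetic replicate 2 there were 7, and 831 over all genes in place of 1336. In 2 genes, Mmp27 and Mmp23, the groups did not overlap, against 1.66% of all genes. The type 1 and type 2 comparisons of a day share the non-diabetic libraries, so values of both are set side by side and their likeness is not a separate result. Fibroblast markers were lower in 3 of 12 genes, monocyte and macrophage markers higher in 7 of 14, and neutrophil markers higher in 1 of 9. T and NK cell markers were higher in 9 of 10, with a median log2 change of 1.14, and late scar, cartilage-like markers lower in 4 of 10. Mural and endothelial markers were lower in 2 of 10 and higher in 1. With the neutrophil and macrophage covariates 0 of the 45 genes passed in edgeR, and with the fibroblast covariate 1, against 12 without covariates. Over all genes 0 and 86 passed in these fits, against 1336 without covariates. The part of these cells was not tested.

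Collagenases were higher in type 2 tissue too. Mmp8 ran from 1.83 over 2.63 to 3.13 log2 CPM, with all 8 libraries above the non-diabetic mean and a log2 change of 1.17 (SE 0.242, edgeR adjusted p = 0.0042), beside 1.45 in type 1. Mmp13 ran from 1.37 over 1.75 to 2.37, a change of 1.08 (SE 0.264, edgeR adjusted p = 0.0141), beside 1.03. Mmp3 ran from 2.61 over 3.71 to 4.57, and its change of 0.48 (SE 0.387, edgeR adjusted p = 0.498) did not pass. Without non-diabetic replicate 5 that change was 1.13 and passed (edgeR adjusted p = 0.0245). Passing in type 2 but not in type 1 tissue, were Mmp25, the membrane-type Mmp of neutrophils, at 0.69 (SE 0.189, edgeR adjusted p = 0.026), and Mmp10 at 1.27 (SE 0.364, edgeR adjusted p = 0.0341). Type 1 against type 2 tissue gave -0.24 for Mmp25 and -0.88 for Mmp10, and neither passed (edgeR adjusted p = 0.501 and 0.162). Mmp10 stood at a mean log2 CPM of -1.06 in type 2 and -2.22 in non-diabetic tissue, and its call was lost on leaving out any 1 of 8 libraries (non-diabetic replicates 1, 2, 3 and 5, type 2 replicates 3, 5, 7 and 8), with changes of at least 1.1. That of Mmp25 was lost without non-diabetic replicate 2 or type 2 replicate 1 or 4, with changes of at least 0.56.

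Lower in type 2 tissue were Adamts16 (-1.25, SE 0.261, edgeR adjusted p = 0.00434), Adamts2 (-0.44, SE 0.098, edgeR adjusted p = 0.00796), Timp2 (-0.44, SE 0.111, edgeR adjusted p = 0.0166), Mmp23, Adamts10, Adamtsl2 and Adamts17. Adamts16, the largest of these falls, ran from 4.39 over 5.44 to 5.8 log2 CPM in non-diabetic and from 2.39 over 4.16 to 4.64 in type 2 tissue, with the groups overlapping. Mmp23 ran from 6.85 over 7.03 to 7.4 in non-diabetic and from 5.99 over 6.54 to 6.81 in type 2 tissue, a change of -0.58 (SE 0.144, edgeR adjusted p = 0.0162) with no overlap. Adamts10, Adamtsl2 and Adamts17 gave -0.43, -0.68 and -0.97 (edgeR adjusted p = 0.0214, 0.0397 and 0.0413), beside -0.81, -1.39 and -1.81 in type 1. The call of Adamts10 was lost on leaving out non-diabetic replicate 2 or type 2 replicate 1, 3 or 5, at an edgeR adjusted p of at most 0.0578. That of Adamtsl2 was lost without any 1 of 11 libraries (non-diabetic replicates 1 to 5, type 2 replicates 1 and 3 to 7; adjusted p at most 0.0991), and that of Adamts17 without any 1 of 12 (non-diabetic replicates 1 to 4, 6 and 8, type 2 replicates 1, 3 and 5 to 8; at most 0.0891). Timp1 (0.53, SE 0.21, edgeR adjusted p = 0.122) and Mmp2 (-0.44, SE 0.14, edgeR adjusted p = 0.0529) did not pass. Mmp2 ran from 8.18 over 8.53 to 8.72 in type 2 tissue, and it passed on leaving out any 1 of 5 libraries (non-diabetic replicates 7 and 8, type 1 replicates 3 and 4, type 2 replicate 2), at changes of -0.47 to -0.44.

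Between both types of diabetes at day 7, 1 of 45 genes passed, where 2.71% of all genes did (1.51% higher, 1.19% lower). No gene had groups without overlap, against 0.644% of all genes. The gene called was Mmp24, a membrane-type Mmp best known in neurons, at a log2 change of 1.52 for type 1 over type 2 (SE 0.386, edgeR adjusted p = 0.0342). It ran from 0.57 over 1.46 to 2.14 log2 CPM in type 1 and from -0.71 over -0.05 to 1.05 in type 2 tissue, and all 8 type 1 libraries lay above the type 2 mean. The call was lost on leaving out any 1 of 8 libraries (type 1 replicates 6, 7 and 8, type 2 replicates 2, 4, 5, 6 and 8), at changes of at least 1.42, and the exons of Mmp24 overlap the antisense gene BC029722. At an unadjusted p under 0.05 in edgeR there were 13 of 45 genes, and 3543 of all 18165. DESeq2 called 3 and limma-voom 10, and over all genes 1036 and 2927, where edgeR called 492. Leaving out 1 library gave 0 to 6, with 5 without non-diabetic replicate 5 and 6 without type 1 replicate 3 (1112 and 980 over all genes). Adamtsl2 (-0.71, SE 0.202, edgeR adjusted p = 0.0544), Adamts10 (-0.39, SE 0.112, edgeR adjusted p = 0.0588), Mmp3 (1.20, SE 0.385, edgeR adjusted p = 0.0876) and Mmp9 (1.96, SE 0.668, edgeR adjusted p = 0.107) did not pass. Mmp3 and Mmp9 passed without non-diabetic replicate 5 (edgeR adjusted p = 0.0131 and 0.0219), a library of neither group, which enters through the shared estimate of the spread. Mmp3 also passed without type 1 replicate 3 (edgeR adjusted p = 0.0425), as did Mmp2 (-0.54, edgeR adjusted p = 0.00649) from a value of -0.38.

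By day 28 few of the genes differed from non-diabetic tissue. In type 1 tissue 3 of 43 passed, all higher, where 4.02% of all genes passed (2.6% higher, 1.41% lower). Beside them, fibroblast markers were higher in 2 of 12 genes and late scar markers lower in 1 of 10, and the median log2 change was 0.17 for neutrophil, -0.03 for T and NK cell and -0.22 for cardiomyocyte markers. Their part in the result was not tested. Adamts1, an inhibitor of vessel growth as well as a protease, ran from 5.45 over 6.03 to 6.85 log2 CPM in non-diabetic and from 5.8 over 6.81 to 7.28 in type 1 tissue, with 9 of 10 libraries above the non-diabetic mean and a log2 change of 0.70 (SE 0.169, edgeR adjusted p = 0.0148). Mmp2 ran from 7.72 over 8.3 to 8.49 in non-diabetic and from 8.22 over 8.6 to 9.11 in type 1 tissue, a change of 0.47 (SE 0.125, edgeR adjusted p = 0.0279) with 10 of 10 libraries above that mean. Mmp17 changed by 0.54 (SE 0.144, edgeR adjusted p = 0.028). All of these groups overlapped, as did those of every other tested gene of the list, against 0.196% of all genes without overlap. The call of Mmp2 was lost on leaving out non-diabetic replicate 2, 4 or 5 or type 1 replicate 5, 8 or 9 (changes of at least 0.41, edgeR adjusted p at most 0.0646), and that of Mmp17 without non-diabetic replicate 7 or 11 or type 1 replicate 5, 6, 7, 8 or 9 (at least 0.48, at most 0.0671). Without type 1 replicate 5, 8 or 9 the count was 1. Of the 25 genes called in type 1 tissue at day 7, 3 were called at day 28, and of these only Adamts1 in the same direction. No gene was called lower in edgeR, with 1 at an unadjusted p under 0.05, while DESeq2 and limma-voom each called 1. Over all 18901 genes 1691 were lower at an unadjusted p under 0.05, and DESeq2 and limma-voom called 504 and 1437 lower.

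Type 2 tissue at day 28 also had 3 of 43 genes called, all higher, where 10.7% of all genes passed (7.21% higher, 3.5% lower), and 0 had groups without overlap, against 0.429% of all genes. T and NK cell markers were higher in 9 of 10 genes (median log2 change 1.14), with sums of 5.44 to 31.3 CPM in non-diabetic and 14.1 to 92 in type 2 tissue. Neutrophil markers were higher in 2 of 8 tested (sums of 11.1 to 27.7 and 17.2 to 31.3 CPM), monocyte and macrophage markers higher in 3 of 14 (247 to 706 and 417 to 974 CPM), and fibroblast markers lower in 3 of 12 and higher in 1. Mural and endothelial markers were higher in 3 of 10 and lower in 1. The part of these cells was not tested. Mmp25 ran from -1.41 over -0.89 to 0.62 log2 CPM in non-diabetic and from -0.24 over 0.47 to 1.17 in type 2 tissue, with 10 of 10 libraries above the non-diabetic mean and a log2 change of 1.17 (SE 0.237, edgeR adjusted p = 0.00145). Adamts14 ran from -0.27 over 1.02 to 1.56 in non-diabetic and from 0.72 over 1.81 to 3.99 in type 2 tissue. Its change of 1.21 (SE 0.307, edgeR adjusted p = 0.00956) leaned on replicate 10 at 3.99 and was 0.75 (edgeR adjusted p = 0.0415) without it. Type 1 libraries of Adamts14 ran from 0.73 to 2.59 log2 CPM at day 28, and did not pass against non-diabetic tissue. Between both types the gene did not pass either, so a rise particular to type 2 tissue was not shown. Adamts9 gave 0.42 (SE 0.125, edgeR adjusted p = 0.029), and missed the threshold without non-diabetic replicate 7 or type 2 replicate 5, 8 or 10, with changes of at least 0.32. No gene was called lower in edgeR, with 3 at an unadjusted p under 0.05, 1 called by DESeq2 and 2 by limma-voom. Over all 18901 genes these counts were 1959, 867 and 850. Between type 1 and type 2 tissue at day 28, 0 of 43 genes passed in edgeR, where 3.21% of all genes did (1.19% higher, 2.03% lower), and 0 had groups without overlap, against 0.238%. At an unadjusted p under 0.05 there were 5, while DESeq2 called 0 and limma-voom 1. Over all 18901 genes these counts were 3182, 1046 and 846.

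Mmp3, Timp1, Mmp27 and Adamts10, which were called in type 1 tissue at day 7, did not pass at day 28. Mmp3 ran from 5.44 over 6.04 to 7.3 log2 CPM in non-diabetic, from 5.55 over 6.33 to 6.59 in type 1 and from 5.56 over 6.55 to 6.97 in type 2 tissue, with log2 changes of -0.10 (SE 0.201) and 0.18 (SE 0.201). Timp1 had medians of 6.26, 6.16 and 6.25, with changes of -0.12 (SE 0.192) and 0.15 (SE 0.192). Mmp27 changed by -0.22 (SE 0.189) and -0.15 (SE 0.19), and Adamts10 by 0.12 (SE 0.126) and -0.17 (SE 0.126). Mmp9, Mmp12, Mmp13, Mmp14, Timp2, Timp3 and Timp4 did not pass in either comparison. The groups of these genes overlapped.

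A test of the difference itself, the type 1 change at day 28 minus that at day 7, passed for 19 of 45 genes, where 12.5% of all genes passed (6.98% above 0, 5.5% below). It was above 0 for 14 genes and below 0 for 5 (Mmp3, Mmp8, Mmp13, Mmp27 and Timp1). The largest were Adamts17 at 1.91 (SE 0.335, edgeR adjusted p = 9.27e-05), Adamtsl2 at 1.82 (SE 0.276, edgeR adjusted p = 1.25e-05) and Mmp3 at -1.79 (SE 0.419, edgeR adjusted p = 0.0027). The smallest p belonged to Mmp2, at 1.28 (SE 0.189, edgeR adjusted p = 8.45e-06), which was lower at day 7 and higher at day 28. Mmp17 (1.21, SE 0.212, edgeR adjusted p = 9.15e-05) did the same. Timp1 and Timp2 went in opposite directions, at -1.03 (SE 0.292, edgeR adjusted p = 0.0134) and 0.57 (SE 0.174, edgeR adjusted p = 0.0227). Of the 19 genes, 18 had been called in type 1 tissue at day 7. The difference contains that day 7 change, so part of this overlap is built in and is not a separate result. The other gene, Mmp14 (0.52, edgeR adjusted p = 0.049), missed the threshold on leaving out any 1 of 35 of the 55 libraries, from every group. Mmp8 (-1.33, edgeR adjusted p = 0.0326) missed it without day 7 non-diabetic replicate 2 or 4, day 7 type 1 replicate 4 or 7 or day 28 non-diabetic replicate 3 or 9, at changes of -1.28 to -1.11. With the fibroblast covariate 1 gene of the list passed, and with the neutrophil and macrophage covariates 21. Over all genes 531 and 4704 passed in these fits, against 2548 without covariates. For type 2 the difference passed for 1 gene, Mmp27 at -1.06 (SE 0.256, edgeR adjusted p = 0.0215), where 1.51% of all genes passed (1.08% above 0, 0.426% below). An unadjusted p under 0.05 in edgeR was found for 13 of 45 genes and for 3245 of all 20421. Leaving out 1 library gave 1 to 6 genes, 6 without day 28 type 2 replicate 5.

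**Figure D5:**
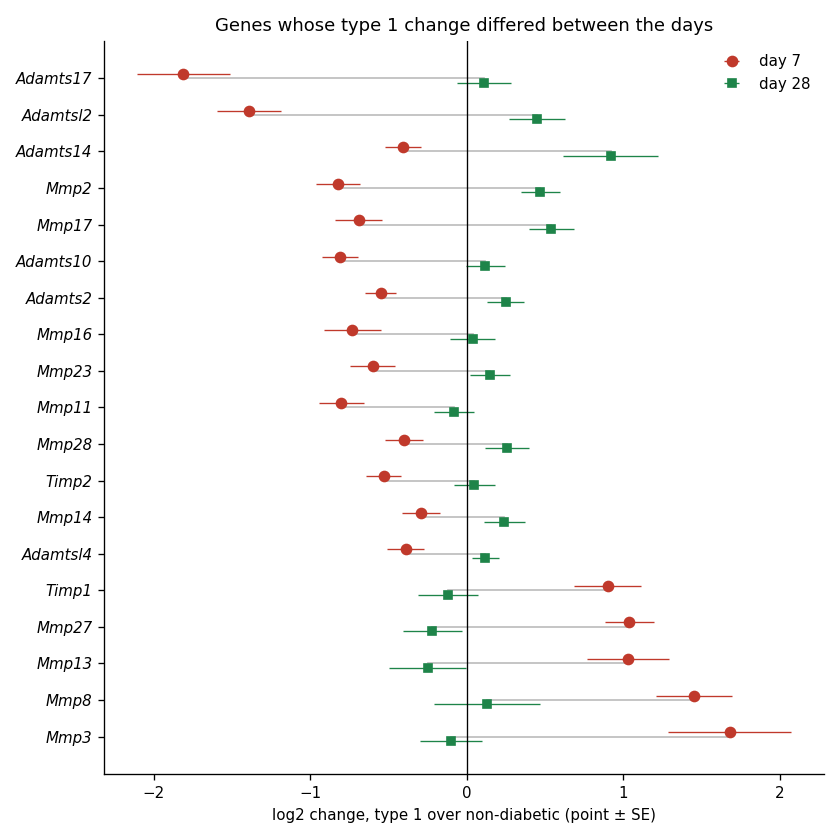
Log2 change (x axis, point ± SE) of type 1 over non-diabetic tissue at day 7 (red circles) and day 28 (green squares) for the 19 genes (rows) whose change differed between the days. Genes with red circles left of 0, such as Adamts17 at -1.81, have green squares near or right of 0, and those with red circles right of 0, such as Mmp3 at 1.68, have green squares near 0. The genes were chosen by this difference, so a gap between circle and square is built in.

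Regulators and substrates of these proteases were read from 4 further lists. Of 18 tested genes that activate or restrain metalloproteinases, 4 rose and 4 fell in type 1 tissue at day 7, where 11.1% of all genes were higher and 11.4% lower. The rises included the cell surface receptor Cd44 (0.66, edgeR adjusted p = 0.00172), A2m, a broad protease trap (1.45, edgeR adjusted p = 0.01), and Plaur, the receptor of urokinase (0.76, edgeR adjusted p = 0.0175). The falls included Reck, a membrane inhibitor of Mmps (-0.74, edgeR adjusted p = 0.000477), Pcsk6, a proprotein convertase (-0.89, edgeR adjusted p = 0.00113), and Thbs2, a matricellular protein that helps to clear Mmp2 (-0.97, edgeR adjusted p = 0.00147). In type 2 tissue 4 of the 18 fell and none rose (3.5% and 3.85% of all genes), with Thbs2 at -0.79, Reck at -0.50 and Pcsk6 at -0.64. At day 28 the same list had 8 of 19 higher in type 1 and 5 of 19 higher in type 2 tissue, where 2.6% and 7.21% of all genes were higher. Plaur changed by 0.77 in type 1 and 0.93 in type 2 tissue (edgeR adjusted p = 0.00545 and 0.000234). A2m rose by 2.33 in type 2 (edgeR adjusted p = 0.00535).

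Of 19 matrix substrates tested at day 7, 10 fell, 2 rose (Spp1 at 0.79 and Vcan at 0.40) and 7 did not pass in type 1 tissue, where 11.4% of all genes were lower and 11.1% higher. In type 2 tissue 6 fell and 13 did not pass, where 3.5% of all genes were lower. Elastin (Eln) changed by -2.11 in type 1 and -1.32 in type 2 tissue (edgeR adjusted p = 0.000154 and 0.00992), and Comp, cartilage oligomeric matrix protein, by -1.88 and -0.99 (edgeR adjusted p = 0.000133 and 0.0236). At day 28, 1 of the substrates was called in type 1 (Fbn2, 0.41) and 3 in type 2 tissue (Vwf at 0.85, Hspg2 at 0.34 and Tnc at 1.21), all higher, where 2.6% and 7.21% of all genes were. Of 15 ADAM and astacin proteases, 3 rose in type 1 tissue at day 7, against 11.1% of all genes (Tll1 at 0.83, Adam8 at 0.84 and Adam9 at 0.27), and none was called in type 2 tissue. Of 18 other matrix-degrading proteases and cystatins, 6 rose and 4 fell in type 1 (11.1% and 11.4% of all genes), among them the cystatins Cstb (0.72) and Cst3 (-0.58), and 1 rose and 2 fell in type 2 tissue (3.85% and 3.5% of all genes): Ctss, a macrophage cathepsin (0.57), Ctsk, a collagen-cutting cathepsin (-0.70), and Htra3 (-0.83).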

How the data were processed

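Poly(A) RNA libraries (TruSeq Stranded kit, RNA by PureLink kit, per the labels' protocols) from 55 infarct samples were analysed. The deposited values are raw counts per gene in 1 table per day, made by the authors on mm39 with DESeq2 among their tools, per the submitters' processing notes; which aligner and counter they used, and whether strand was read, is not given in the sources used here. Of counts from 1 to 49, 76.4% at day 7 and 75.2% at day 28 were even, so counts are not independent fragments. Genes with a symbol held 99.34% and 99.58% of counts. No pair of libraries of the same group agreed within sampling noise (lowest chi-square per gene 17.6 and 25). Pairs from different groups were not compared in this way. Library totals are in the report, and their depth limits the genes with few counts, such as Mmp10.

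Counts were fitted with edgeR 4.0.16 (R 4.3.3, TMM scaling, filterByExpr with a minimum count of 10 and total of 15, quasi-likelihood test), with the 3 groups of a day together and all 55 libraries for differences between days; p-values were Benjamini-Hochberg adjusted over all genes. Standard errors are the log2 change divided by the square root of F, and log2 CPM used a prior count of 2. Exon lengths came from GENCODE M21 (GRCm38), another build than the authors'. Any of the 51 genes could be named, and those called were given with their values. The genes, lists and tests were chosen with earlier results of these data known. The fits were tested on simulated data. Alternatives used DESeq2 1.42.0, limma 3.58.1 (voom), RLE scaling, no filter, only the groups compared, a replicate block, marker covariates, libraries summed by the first number of their names and each library left out. The covariates for neutrophils and macrophages and for fibroblasts were added after seeing the data.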

Additional observations from a re-analysis of the deposited data

Results flagged for a closer look

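In 7 of 96 tests of a gene in a group of 8 to 10 libraries, 1 library lay far from the others by Dixon's criterion, which chance does in about 1 in 20 groups. At day 7 non-diabetic replicate 5 was far out for Mmp3 (5.18 log2 CPM), Mmp13 (-1.15) and Adamts17 (1.79). Type 1 replicate 4 was far out for Mmp13 (0.57), and type 2 replicate 1 for Adamts16 (2.39) and Adamtsl3 (5.87). At day 28 type 2 replicate 10 was far out for Adamts14 (3.99).

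The type 1 change differed between the days by a test of the difference itself (edgeR contrast, day 28 minus day 7, log2 scale) in 19 genes. Above 0 were Adamts17 (1.91), Adamtsl2 (1.82), Adamts14 (1.31), Mmp2 (1.28), Mmp17 (1.21), Adamts10 (0.92), Adamts2 (0.79), Mmp16 (0.76), Mmp23 (0.75), Mmp11 (0.70), Mmp28 (0.65), Timp2 (0.57), Mmp14 (0.52) and Adamtsl4 (0.50). Below 0 were Mmp3 (-1.79), Mmp8 (-1.33), Mmp13 (-1.30), Mmp27 (-1.27) and Timp1 (-1.03). For type 2 it was Mmp27 alone in edgeR (-1.06), while DESeq2 called 6 genes and limma-voom 4 (308, 612 and 429 over all genes). Day and sequencing project cannot be told apart, and the part of tissue makeup in these differences was not tested.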

How the results depend on the processing

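Counts of genes called are given in the order type 1 against non-diabetic, type 2 against non-diabetic and type 1 against type 2 at day 7 (25, 12 and 1), the same at day 28 (3, 3 and 0), and the differences between days for type 1 and type 2 (19 and 1). DESeq2 gave 27, 14, 3, 5, 5, 0, 19 and 6, and limma-voom 29, 14, 10, 8, 6, 1, 21 and 4. Over all genes DESeq2 called 4674, 1918, 1036, 1219, 2464, 1046, 2952 and 612. There limma-voom called 5901, 1941, 2927, 3025, 2234, 846, 3907 and 429. RLE scaling gave 3 in place of 1 for the type 2 difference, and fitting only the groups compared gave 4 for type 1 against type 2 at day 7 and 6 for type 1 at day 28. The cardiomyocyte covariate gave 23, 17, 2, 5, 9, 3, 19 and 6. Summing libraries by the first number of their names, which leaves fewer samples, gave 12, 1, 0, 0, 1, 0, 6 and 0. Over all genes it gave 1459, 176, 0, 6, 427, 125, 423 and 0. Libraries that share a number may be less independent than the main fit takes them to be, which was not tested. The neutrophil and macrophage covariates gave 0, 0, 1, 4, 5, 8, 21 and 7, and the fibroblast covariate 0, 1, 0, 4, 6, 2, 1 and 1. Over all genes the first 7 of these counts were 0, 0, 259, 1325, 1001, 1285 and 4704 with the former. With the latter they were 0, 86, 67, 559, 3152, 1584 and 531. Without a filter on low counts the counts were 24, 8, 1, 2, 4, 0, 17 and 1. Leaving out 1 library at a time gave 22 to 28, 7 to 16, 0 to 6, 1 to 4, 2 to 4, 0 to 0, 17 to 20 and 1 to 6. The cause was not tested for the other changes.

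Same-numbered libraries correlated over 0.1 in 19 of 54 pairs (median r 0.04), so the numbers were not taken to pair them. With the replicate block the counts were 26, 10, 1, 0, 4, 0, 17 and 1, so that the 3 calls for type 1 at day 28 were lost. In that comparison 333 of all genes passed with the block, against 759 without it.

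Log2 changes that moved to 0 or to its other side did so with marker covariates. Apart from Timp2 in type 1 against type 2 at day 28, none of these values passed (edgeR adjusted p of at least 0.322). Their direction is therefore not settled. For type 1 at day 7 the neutrophil and macrophage covariates gave Timp1 -0.38, Adamts9 -0.16, Mmp19 -0.27, Mmp15 0.62, Mmp8 -0.37, Mmp3 -0.12 and Adamts1 -0.18. The fibroblast covariate gave Timp1 -0.12, Mmp16 0.12, Mmp23 0.0, Adamts9 -0.08, Adamtsl3 0.16, Mmp3 0.0 and Timp2 0.06. For type 2 at day 7 the former gave Adamtsl2 0.07, Adamts17 0.34, Mmp8 -0.18 and Adamts10 0.01, and the latter Adamts17 0.03. For the type 1 difference between days the fibroblast covariate gave Mmp16 -0.12, Mmp11 -0.01, Mmp14 -0.09 and Timp2 -0.23. For Timp2 in type 1 against type 2 at day 28 the neutrophil and macrophage covariates gave 0.36 (edgeR adjusted p = 0.0224). There the fibroblast covariate gave -0.25 (edgeR adjusted p = 0.0381). These passed on opposite sides of 0, so they are not reversals of a shared direction, and without covariates Timp2 did not pass. Of 140 single-gene results, 135 kept their side of the threshold with DESeq2 and 128 with limma-voom, and those called also kept their direction. Fewer did so in other settings: 96 with libraries summed by first number, 91 with the neutrophil and macrophage covariates and 82 with the fibroblast covariate.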
